A study of Mus musculus with 6 samples.

Results

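The 10 imprinted genes described here are Meg3, Rian, Mirg, H19, Igf2, Igf2r, Dlk1, Peg3, Cdkn1c and Plagl1, chosen by symbol among 24421 gene rows of bulk RNA-Seq of mouse muscle. All 10 rows were found, and all 10 passed the filter on low counts that left 14180 genes tested. RNA came from the gastrocnemius/plantaris (GP) of male mice that were 5 months old and had received tamoxifen 3 months earlier. The labels give the strain as B6C3F1, and the methods describe founders crossed to C57BL/6N mice and then to mice with the Cre transgene. The sample labels name 3 mice as Ctrl (Net39 fl/fl, without Cre) and 3 as cKO (HSACreERT2;Net39 fl/fl), so both groups carried the floxed alleles and received tamoxifen. Net39 encodes a protein of the nuclear envelope of muscle, and the human skeletal actin (HSA) promoter limits the inducible Cre to skeletal muscle fibres, so that satellite cells, vessels and connective tissue in the same muscle keep the gene.

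Imprinted genes are expressed mainly from the copy inherited from a single parent, and they lie in clusters in which a control region, methylated on the copy from the mother or from the father, sets which genes are active. Meg3, Rian and Mirg are long noncoding RNAs made from the maternal copy of the Dlk1-Dio3 cluster, whose paternal copy gives the protein-coding Dlk1, while H19, also a noncoding RNA, and the growth factor Igf2 are read from opposite parental copies of a neighbouring pair. Many of these genes are abundant in the fetus and in growing muscle and are reduced after birth, and several of the noncoding RNAs are hosts of microRNAs.

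Net39, listed in the files under its older symbol Ppapdc3, went against the labels. Its counts were 310, 321 and 217 in the 3 Ctrl-labelled libraries and 5365, 4340 and 6080 in cKO-labelled libraries, a log2 difference of 4.22 ± 0.17 (SE; edgeR quasi-likelihood test, Benjamini-Hochberg adjusted p = 0.000161). Libraries are therefore called Ctrl-labelled and cKO-labelled throughout, every direction is that of the labels, and a gene called higher in Ctrl-labelled libraries is higher where Net39 was low. Total counts were 33860001 to 38201728 in Ctrl-labelled libraries and 39191239 to 48839910 in cKO-labelled libraries. Normalization factors of the trimmed mean of M values (TMM) were 1.08 to 1.113 and 0.865 to 0.9829 in the 2 groups, and dropping them moved the median over all genes tested from -0.0155 to -0.269 on the log2 scale. Skeletal muscle genes were high throughout, with Acta1, the actin of the fibre, at 1096162 counts or more in each library.

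The noncoding RNAs H19, Meg3, Rian and Mirg carry microRNA sequences, and those below are shown because the hosts include H19 and Mirg, the 2 of the 10 genes that passed with a fold change over 2. They are mature microRNAs of RefSeq (GRCm38.p6) placed within the gene on the same strand, written from the 5′ end, with the seed, bases 2 to 8, in capitals. Both arms of miR-675 lie in an exon of H19 on the minus strand, with the 5p arm at chr7:142577112-142577133. The miR-770 arm lies in an exon of Meg3 at chr12:109563710-109563731, on the plus strand, and miR-370-3p lies outside the exons of Rian at chr12:109618305-109618326. The other 6 lie within Mirg, where miR-134-5p, miR-485-3p, miR-377-3p and miR-410-3p fall in its exons.
miR-675-5p: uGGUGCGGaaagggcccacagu
miR-675-3p: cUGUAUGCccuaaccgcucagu
miR-770-5p: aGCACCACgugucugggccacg
miR-370-3p: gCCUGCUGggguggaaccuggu
miR-134-5p: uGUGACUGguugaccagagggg
miR-485-3p: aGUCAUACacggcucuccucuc
miR-377-3p: aUCACACAaaggcaacuuuugu
miR-410-3p: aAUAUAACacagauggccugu
miR-453: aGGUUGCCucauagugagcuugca
miR-496a-5p: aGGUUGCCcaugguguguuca

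MicroRNAs were sought within H19, Igf2, Meg3, Rian and Mirg only, and not within the rest of the 10 genes. Of the 39 mature sequences placed there, 26, from 14 hairpin genes, lay in Mirg, 6 in Rian, 3 in Meg3, 2 in H19 and 2 in Igf2. The only seed that 2 of them shared was GGUUGCC, in miR-453 and miR-496a-5p of Mirg. Mature microRNAs were not measured, since the libraries were made with a kit for mRNA. Of 62 microRNA genes listed for these clusters and for a few other imprinted ones, 60 had a row, 42 of those were at 0 in every library, and none was tested. Their counts summed to 7, 5 and 7 in Ctrl-labelled libraries and to 1, 7 and 6 in cKO-labelled libraries.

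Across the 10 genes, 5 passed the test with higher values in Ctrl-labelled libraries, namely H19, Mirg, Igf2, Igf2r and Cdkn1c, and 0 passed with higher values in cKO-labelled libraries (edgeR quasi-likelihood test, adjusted p under 0.05 over all genes tested). Among all genes tested, 11.8% passed in the first direction and 12.6% in the second. At an unadjusted p under 0.05 the counts were 6 and 1, against 19.6% and 19.2% of all genes tested. DESeq2 also called 6 and 1, adding Rian and Dlk1, against 12.3% and 14.1% of the genes it tested. With a fold change over 2 required as well, H19 and Mirg remained, 2 of 10 against 3.92% of all genes, while 0 were higher in cKO-labelled libraries against 2.13% of all genes. The median log2 fold change of the 10 genes was -0.43, with 8 below 0 and 2 above.

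The values of the labelled groups did not overlap for 6 of the 10 genes. H19, Mirg, Igf2, Igf2r and Cdkn1c were higher in all 3 Ctrl-labelled libraries, where 21.9% of all genes tested behaved so, and Dlk1 was higher in all 3 labelled cKO, where 22% did. Meg3, Rian, Peg3 and Plagl1 overlapped. The count of 5 changed when single libraries were left out. It was 0 without Ctrl replicate 2 and 0 without cKO replicate 3. It was 2 without Ctrl replicate 1, 2 without cKO replicate 1, 4 without Ctrl replicate 3 and 6 without cKO replicate 2. Over all genes, 947, 788, 809, 893, 1529 and 1808 passed higher in Ctrl-labelled libraries in these fits, in the same order. These were out of 14361 to 14453 genes tested, against 1668 of 14180 with all libraries. Of the 6 genes known to be expressed from the maternal copy, all had log2 fold changes below 0 and 4 passed, whereas of the 4 paternally expressed genes 2 were below 0, 2 were above and 1, Igf2, passed. This division by parental copy was made after the values were seen and was not tested.

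**Figure D1:**
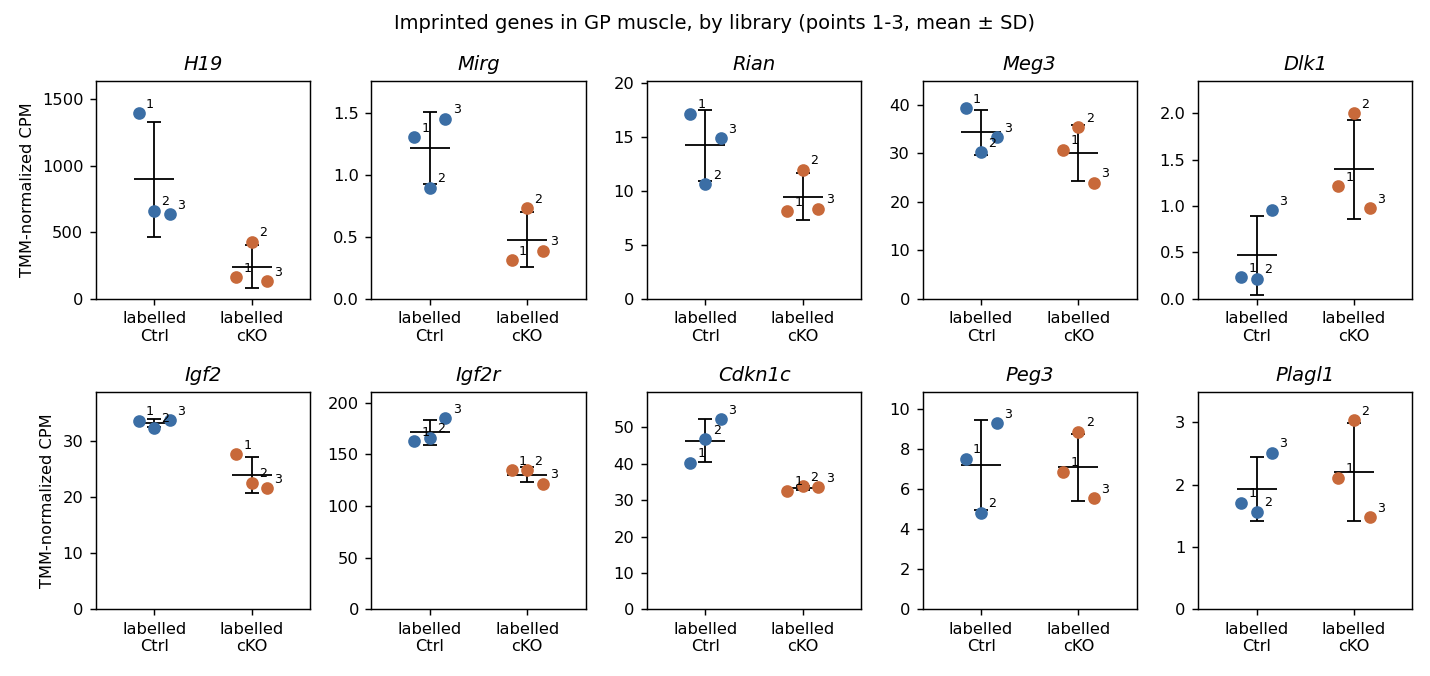
TMM-normalized CPM (counts scaled to a common library size, linear axes from 0) of the 10 genes in each library, with points numbered by replicate, a long bar at the mean and short bars at ± SD of 3 libraries. H19, Mirg, Igf2, Igf2r and Cdkn1c lie higher in every library labelled Ctrl than in any labelled cKO, Dlk1 lies the other way, and the other 4 overlap.

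**Figure D2:**
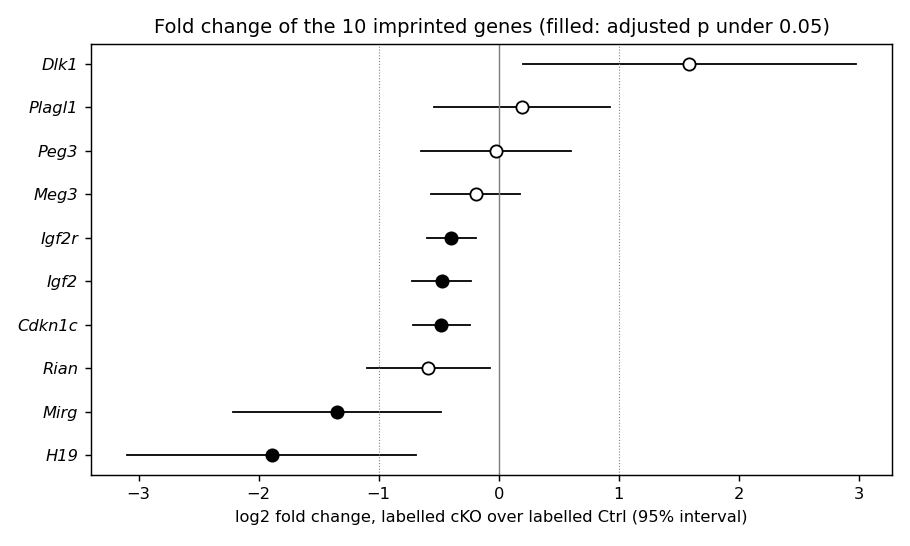
Log2 fold change of each gene, labelled cKO over labelled Ctrl, with its 95% interval from edgeR. Filled points mark an adjusted p under 0.05, dotted lines mark a fold change of 2, and the intervals of H19 and Dlk1 are the widest.

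H19 (chr7:142575529-142578143, GRCm38, minus strand) is a long noncoding RNA of the fetus that persists in adult skeletal muscle. It was the most abundant of the 10 genes, with 54713, 27477 and 23252 counts in Ctrl-labelled libraries and 5780, 16570 and 5866 in cKO-labelled libraries. H19 CPM was 899 ± 432 (SD, n = 3) in Ctrl-labelled libraries and 242 ± 164 (SD, n = 3) in cKO-labelled libraries. The groups did not overlap, but each had a library well above the other 2, namely Ctrl replicate 1 at 1397 CPM and cKO replicate 2 at 430 CPM, so the highest value was 2.20 times the lowest in the first group and 3.23 times in the second.

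H19 was 3.71-fold lower in cKO-labelled libraries, with a log2 fold change of -1.89 ± 0.51 (SE) and a 95% interval of -3.09 to -0.69 (edgeR quasi-likelihood test, adjusted p = 0.0364). Fewer cells of a type that makes an RNA and less of that RNA in each cell cannot be told apart in bulk muscle, which holds for every gene given here. The direction of H19 was the same in every alternative run, with adjusted p from 0.00859 to 0.115. The call was lost without Ctrl replicate 1 (log2 fold change -1.42, adjusted p = 0.1096 in edgeR), Ctrl replicate 2 (adjusted p = 0.0631 in edgeR), cKO replicate 1 (adjusted p = 0.115 in edgeR) or cKO replicate 3 (adjusted p = 0.101 in edgeR), and in the robust fit (adjusted p = 0.0573 in edgeR). Without cKO replicate 2, the highest of its group, the log2 fold change was -2.62 (adjusted p = 0.00859 in edgeR).

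Nctc1, a noncoding RNA transcribed on the same strand close to H19, across an enhancer region used in muscle, had counts of 2959, 4189 and 3074 in Ctrl-labelled libraries. In cKO-labelled libraries it had 5499, 5084 and 5837, and the groups did not overlap. It rose where H19 fell, by a log2 fold change of 0.69 ± 0.13 (SE; edgeR quasi-likelihood test, adjusted p = 0.0106), and it passed in every alternative run. Counts of Nctc1 were 5.41%, 15.3% and 13.2% of those of H19 in Ctrl-labelled libraries and 95.1%, 30.7% and 99.5% in cKO-labelled libraries. This ratio, which does not depend on the scaling of the libraries, differed without overlap (p = 0.1 by an exact two-sided permutation test, where 3 against 3 can give no less, and 0.133 after Benjamini-Hochberg adjustment over 8 ratios).

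Igf2 (chr7:142650766-142666816, minus strand) encodes a growth factor of the insulin family that drives fetal growth and the differentiation of myoblasts. Igf2 had 1315, 1342 and 1232 counts in Ctrl-labelled libraries and 979, 870 and 948 in cKO-labelled libraries. Its CPM was 33.2 ± 0.726 (SD, n = 3) in the first group and 23.9 ± 3.25 (SD, n = 3) in the second. The libraries labelled Ctrl lay close together and above all cKO-labelled libraries, in which replicate 1 was the highest.

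The difference in Igf2 was 1.39-fold, a log2 fold change of -0.47 ± 0.11 (SE; edgeR quasi-likelihood test, adjusted p = 0.0194). Without Ctrl replicate 1, Ctrl replicate 2 or cKO replicate 3 the adjusted p rose to 0.0680, 0.0545 and 0.0628 (edgeR), with the log2 fold change between -0.73 and -0.42 over all alternatives. Of the exon bases of Igf2 in GENCODE M21, 3596 are shared with Gm49394 on the same strand and 98 with Igf2os on the opposite strand, so reads there cannot be assigned to Igf2 with certainty. Igf2 was 2.40%, 4.88% and 5.30% of the counts of H19 in Ctrl-labelled libraries and 16.9%, 5.25% and 16.2% in cKO-labelled libraries. In cKO replicate 2, which had the highest H19 of its group, this ratio lay within the range of Ctrl-labelled libraries (exact two-sided permutation test, p = 0.2, adjusted 0.229).

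Igf2r (chr17:12682406-12769664, minus strand) encodes the receptor that carries IGF2 to lysosomes for degradation and does not signal as IGF1R does. Its counts were 6374, 6887 and 6758 in Ctrl-labelled libraries and 4762, 5193 and 5355 in cKO-labelled libraries. In CPM the groups were at 171 ± 11.9 and 130 ± 7.47 (SD, n = 3 each), without overlap. This was a 1.31-fold difference, or -0.39 ± 0.09 (SE) on the log2 scale (edgeR quasi-likelihood test, adjusted p = 0.0189). The call was lost without Ctrl replicate 2 (log2 fold change -0.41, adjusted p = 0.0538 in edgeR) or cKO replicate 3 (log2 fold change -0.36, adjusted p = 0.0650 in edgeR).

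The fold differences of the ligand and of its clearance receptor were thus 1.39 and 1.31. Igf2 counts were 20.6%, 19.5% and 18.2% of those of Igf2r in Ctrl-labelled libraries and 20.6%, 16.8% and 17.7% in cKO-labelled libraries. The log2 difference of this ratio was -0.09, against an SD of 0.13 within groups, and the groups overlapped (p = 0.4 by an exact two-sided permutation test, adjusted 0.4). Airn, the noncoding RNA whose transcription silences the paternal Igf2r copy, had 166, 210 and 217 counts in Ctrl-labelled libraries and 237, 295 and 241 in cKO-labelled libraries (log2 fold change 0.38 ± 0.18, SE, edgeR adjusted p = 0.163). It is given here after its values were seen.

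Cdkn1c (chr7:143458339-143461050, minus strand) encodes p57, an inhibitor of cyclin-dependent kinases that restrains growth and accompanies the exit of myoblasts from the cell cycle. Cdkn1c had 1575, 1934 and 1909 counts in Ctrl-labelled libraries and 1156, 1303 and 1473 in cKO-labelled libraries. This was 46.4 ± 5.998 CPM (SD, n = 3) and 33.3 ± 0.622 CPM (SD, n = 3). After scaling, the 3 cKO-labelled libraries were almost level and all lay under the lowest labelled Ctrl.

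Cdkn1c was 1.39-fold lower in cKO-labelled libraries, with a log2 fold change of -0.48 ± 0.10 (SE; edgeR quasi-likelihood test, adjusted p = 0.0172). Leaving out Ctrl replicate 2, cKO replicate 1 or cKO replicate 3 moved the adjusted p to 0.0567, 0.0519 and 0.0512 (edgeR), with the log2 fold change between -0.73 and -0.38 over all alternatives. The 589 exon bases that Cdkn1c shares with Gm44732 on the opposite strand could add reads of either gene, since the strand setting of the counting is not given in the sources used here. Kcnq1ot1, the noncoding RNA of the same cluster that silences Cdkn1c on the paternal copy, had 682, 768 and 706 counts in Ctrl-labelled libraries and 534, 562 and 765 in cKO-labelled libraries. It did not pass (log2 fold change -0.23 ± 0.10, SE, edgeR adjusted p = 0.127) and was chosen after its values were seen.

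Meg3 (chr12:109541001-109571726, plus strand) is a noncoding RNA known to bind chromatin-modifying complexes and to limit growth. Its counts were 1542, 1254 and 1222 in Ctrl-labelled libraries and 1090, 1366 and 1055 in cKO-labelled libraries. The 2 groups overlapped at 34.4 ± 4.63 and 30.1 ± 5.78 CPM (SD, n = 3 each). The log2 fold change of Meg3 was -0.19 ± 0.16 (SE) with a 95% interval of -0.57 to 0.18 (edgeR quasi-likelihood test, adjusted p = 0.409), and adjusted p lay between 0.102 and 0.784 over the alternatives. The interval includes no difference and a reduction of up to 0.57 on the log2 scale.

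Rian (chr12:109603940-109661716, plus strand), which is downstream of Meg3 and hosts small nucleolar RNAs, had 672, 441 and 544 counts in Ctrl-labelled libraries. In cKO-labelled libraries it had 287, 461 and 367 counts. Rian CPM was 14.2 ± 3.31 and 9.47 ± 2.17 (SD, n = 3 each), and the groups overlapped because cKO replicate 2 exceeded Ctrl replicate 2. Rian differed by -0.59 ± 0.22 (SE) on the log2 scale, with an adjusted p of 0.0916 in edgeR's quasi-likelihood test. Rian passed in DESeq2 (adjusted p = 0.0498), in edgeR with total counts as library sizes (adjusted p = 0.0403) and in edgeR without cKO replicate 2 (log2 fold change -0.81, adjusted p = 0.0361), while the range over all alternatives was 0.0361 to 0.259.

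Mirg (chr12:109729764-109749460, plus strand) is the last of the 3 noncoding RNAs along the maternal copy and hosts most of the microRNA sequences counted above. Only 51, 37 and 53 counts were assigned to it in Ctrl-labelled libraries and 11, 28 and 17 in cKO-labelled libraries. As CPM, Mirg was 1.21 ± 0.288 (SD, n = 3) and 0.475 ± 0.222 (SD, n = 3). The groups did not overlap, with Ctrl replicate 2 and cKO replicate 2 the closest to each other.

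Mirg was 2.56-fold lower in cKO-labelled libraries, with a log2 fold change of -1.35 ± 0.37 (SE) and a 95% interval of -2.22 to -0.48 (edgeR quasi-likelihood test, adjusted p = 0.0379). The call was lost without Ctrl replicates 1, 2 or 3 (adjusted p = 0.111, 0.0560 and 0.0885 in edgeR) and without cKO replicates 1 or 3 (adjusted p = 0.106 and 0.122 in edgeR), while the log2 fold change stayed between -1.80 and -1.14.

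Along the cluster, the point estimates ran from Meg3 (-0.19) through Rian (-0.59) to Mirg (-1.35), in the order of the genes on the chromosome. Their 95% intervals overlapped (-0.57 to 0.18 for Meg3, -1.10 to -0.08 for Rian and -2.22 to -0.48 for Mirg). Counts of Rian were 43.6%, 35.2% and 44.5% of those of Meg3 in Ctrl-labelled libraries and 26.3%, 33.8% and 34.8% in cKO-labelled libraries. Counts of Mirg were 3.31%, 2.95% and 4.34% of those of Meg3 in the first group and 1.01%, 2.05% and 1.61% in the second. Relative to Meg3, both were higher in every library labelled Ctrl than in any labelled cKO, by -0.38 and -1.22 on the log2 scale of labelled cKO over labelled Ctrl. Mirg relative to Rian was 7.59%, 8.39% and 9.74% against 3.83%, 6.07% and 4.63%. Each of these 3 ratios gave p = 0.1 in the exact two-sided permutation test, which is the smallest the design allows, and 0.133 after adjustment over the 8 ratios.

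**Figure D3:**
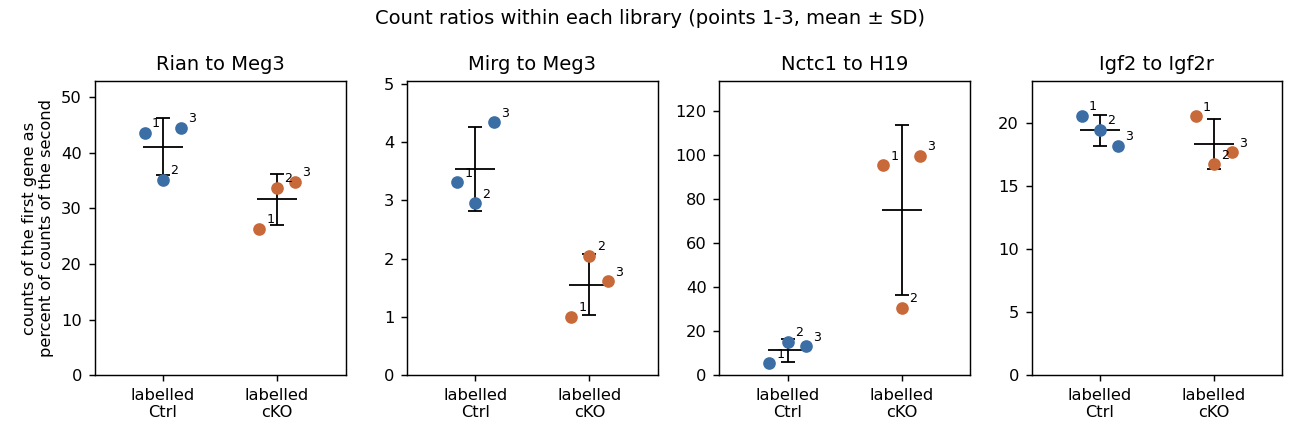
Counts of a gene as a percent of the counts of a second gene in the same library (linear axes from 0), with points numbered by replicate and bars at the mean ± SD of 3 libraries. Rian and Mirg relative to Meg3 are lower in every library labelled cKO, Nctc1 relative to H19 is higher there, and Igf2 relative to Igf2r overlaps.

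Dlk1 (chr12:109452823-109463336, plus strand) encodes a transmembrane protein related to the Notch ligands, is found in fetal muscle and preadipocytes, and lies at the paternally expressed side of the Meg3 cluster. Its counts were low, at 9, 9 and 35 in Ctrl-labelled libraries and 43, 77 and 43 in cKO-labelled libraries. Dlk1 CPM was 0.230, 0.217 and 0.957 in the first group and 1.21, 2.00 and 0.977 in the second. The groups did not overlap, but Ctrl replicate 3 was only just under cKO replicate 3.

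The log2 fold change of Dlk1 was 1.59 ± 0.59 (SE), with a 95% interval of 0.20 to 2.98, and it missed the threshold in edgeR's quasi-likelihood test (adjusted p = 0.0919). It passed without Ctrl replicate 3 (log2 fold change 2.63, adjusted p = 0.0124 in edgeR) and in DESeq2 (adjusted p = 0.0343), and its alternatives gave adjusted p of 0.0124 to 0.233. Rtl1, the other paternally expressed protein-coding gene close by, had 3, 1 and 3 against 3, 4 and 6 counts and was not tested. Dio3os, a noncoding RNA at the far end of the cluster, had 24, 30 and 25 against 53, 30 and 53 counts (log2 fold change 0.78 ± 0.29, SE, edgeR adjusted p = 0.0932). Both were chosen after their values were seen.

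Peg3 (chr7:6703892-6730431, minus strand), a zinc finger gene known from stem cells of many tissues, had 294, 200 and 340 counts in Ctrl-labelled libraries and 243, 341 and 244 in cKO-labelled libraries. The CPM was 7.21 ± 2.25 and 7.09 ± 1.67 (SD, n = 3 each), with full overlap. The log2 fold change was -0.02 ± 0.27 (SE), and its 95% interval of -0.65 to 0.60 leaves room for a change in either direction (edgeR quasi-likelihood test, adjusted p = 0.957). Its sign turned without Ctrl replicate 1 (0.0076), Ctrl replicate 3 (0.20) or cKO replicate 3 (0.11).

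Zim1, the maternally expressed zinc finger gene beside Peg3, had 14, 16 and 18 counts in Ctrl-labelled libraries and 36, 51 and 39 in cKO-labelled libraries. Zim1 rose by 1.38 ± 0.27 (SE) on the log2 scale (edgeR quasi-likelihood test, adjusted p = 0.0137). Without Ctrl replicate 1 or Ctrl replicate 2 its adjusted p was 0.0584 and 0.0539 (edgeR), the former being the highest over the alternatives. Zim1 was 4.76%, 8% and 5.29% of the counts of Peg3 in Ctrl-labelled libraries and 14.8%, 14.96% and 15.98% in cKO-labelled libraries, without overlap (exact two-sided permutation test, p = 0.1, adjusted 0.133).

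Plagl1 (chr10:13060504-13131694, plus strand) encodes a zinc finger transcription factor that is known to bind other imprinted loci, among them that of H19. It had 67, 65 and 92 counts in Ctrl-labelled libraries and 75, 117 and 65 in cKO-labelled libraries. At 1.93 ± 0.511 and 2.21 ± 0.785 CPM (SD, n = 3 each) the groups overlapped. The log2 fold change was 0.19 ± 0.31 (SE), with a 95% interval of -0.54 to 0.93 (edgeR quasi-likelihood test, adjusted p = 0.684). It was below 0 with total counts as library sizes (-0.045) and without cKO replicate 2 (-0.12).

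Per kilobase of the merged exons in GENCODE M21, H19 had the highest level, with a mean of 365 CPM per kb in Ctrl-labelled libraries and 98.5 in cKO-labelled libraries. Cdkn1c (22.7 and 16.3 CPM per kb), Igf2r (18.4 and 14.0), Igf2 (5.80 and 4.18) and Meg3 (1.90 and 1.66) followed in both groups. In Ctrl-labelled libraries the order went on with Rian (0.780), Peg3 (0.541), Plagl1 (0.247), Mirg (0.167) and Dlk1 (0.0827). The place of Mirg depends on the exon length used, as given below. Among neighbours in that order, the ranges over libraries overlapped for Cdkn1c and Igf2r, for Rian and Peg3, and for Mirg and Dlk1.

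In cKO-labelled libraries the lower end of the order was Peg3 (0.532 CPM per kb), Rian (0.519), Plagl1 (0.283), Dlk1 (0.247) and Mirg (0.0651). There the ranges of Peg3 and Rian and those of Plagl1 and Dlk1 overlapped. By the GENCODE M21 lengths, Dlk1 lay above Mirg in every library. H19 lay above the other 9 genes in every library of both groups. The annotation that the authors counted with is not given in the sources used here, so these lengths, and with them the levels per kb, are approximate. Mirg has 7292 exon bases in GENCODE M21 but 1300 in its transcripts matched to RefSeq, against 5657 and 4785 for Dlk1. The low place of Mirg in both groups, and its place under Dlk1, therefore hold only for the GENCODE lengths.

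**Figure D4:**
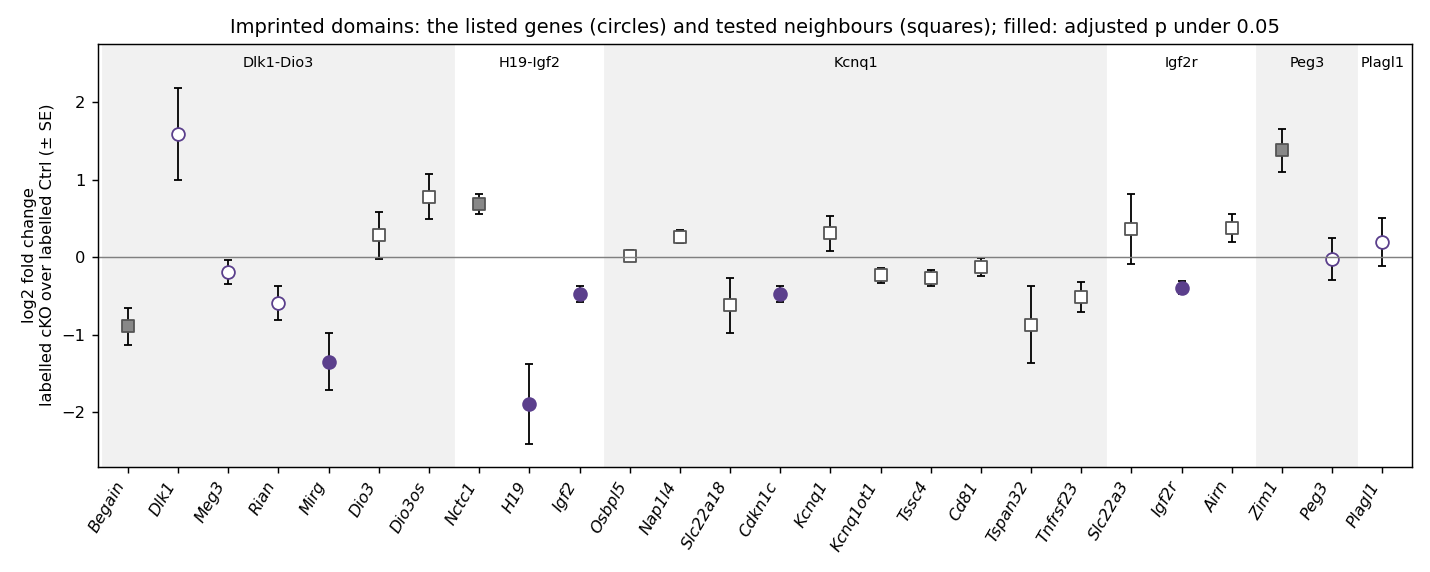
Log2 fold change (labelled cKO over labelled Ctrl, ± SE from edgeR) of the 10 genes (circles) and of the tested neighbours in their clusters (squares), grouped by cluster; filled symbols have an adjusted p under 0.05. Slc22a2, with almost no counts in cKO-labelled libraries, is not drawn; Nctc1 and Zim1 lie above 0 beside H19 and Peg3.

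Of 26 listed neighbours in the clusters of the 10 genes, 25 had a row and 17 were tested. Begain and Slc22a2 were higher in Ctrl-labelled libraries and Nctc1 and Zim1 in cKO-labelled libraries (edgeR quasi-likelihood test), shares near the 11.8% and 12.6% of all genes, and the median log2 fold change of the 17 was 0.02. Slc22a2, an organic cation transporter beside Igf2r, had 61, 37 and 70 counts in Ctrl-labelled libraries and 4, 0 and 0 in cKO-labelled libraries (edgeR adjusted p = 0.00609). Begain, at the edge of the Dlk1 cluster, had 37, 37 and 26 against 16, 18 and 20 counts (log2 fold change -0.89 ± 0.24, SE, edgeR adjusted p = 0.0358). The call of Begain was lost without Ctrl replicate 1 (adjusted p = 0.123 in edgeR), Ctrl replicate 2 (0.109) or any of cKO replicates 1, 2 and 3 (0.101, 0.0676 and 0.114), and also in DESeq2 (adjusted p = 0.0879) and in edgeR with no filter on low counts (adjusted p = 0.0606). The most abundant neighbours that did not pass were Nap1l4, a histone chaperone (233 ± 15.9 against 279 ± 8.72 CPM, SD, n = 3 each), and Cd81, a tetraspanin (87.4 ± 9.67 against 79.9 ± 9.73 CPM, SD, n = 3 each).

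Of 42 listed imprinted genes outside these clusters, 34 were tested, 0 passed with higher values in Ctrl-labelled libraries (3 at an unadjusted p under 0.05, and 2 in DESeq2) and 4 passed in the other direction, with a median log2 fold change of 0.02. Over all genes tested, 11.8% passed in the first direction and 12.6% in the second, so the 4 genes are about as many as the share over all genes gives. Slc38a4, an amino acid transporter, had 1287, 1691 and 2340 counts in Ctrl-labelled libraries and 4900, 6271 and 3922 in cKO-labelled libraries. It was the single gene of this list with a fold change over 2 (log2 fold change 1.503 ± 0.30, SE, edgeR adjusted p = 0.0134), and it missed the threshold without Ctrl replicate 2 (adjusted p = 0.0526 in edgeR).

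Pon3, a lactonase of the paraoxonase family, rose by 0.68 ± 0.07 on the log2 scale (edgeR adjusted p = 0.0022), and Asb4, part of a ubiquitin ligase, rose by 0.66 ± 0.10 (edgeR adjusted p = 0.00566). Both passed in every alternative run. Mcts2, a retrogene within H13, rose by 0.46 ± 0.13 (edgeR adjusted p = 0.0394), but lost its call when any of the 6 libraries was left out (adjusted p up to 0.150 in edgeR) and with total counts as library sizes (log2 fold change 0.20, adjusted p = 0.278 in edgeR). The most abundant that did not pass was Gnas, which gives the stimulatory G protein subunit, with a log2 fold change of 0.16 ± 0.10 (SE, edgeR adjusted p = 0.281).

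Growth signalling beyond Igf2 and Igf2r was read from a list of 11 genes, of which 10 were tested. Irs1, the adaptor that carries the insulin and IGF1 receptor signal, had 5813, 4612 and 4282 counts in Ctrl-labelled libraries and 2759, 3350 and 2802 in cKO-labelled libraries. It was the 1 gene that passed higher in Ctrl-labelled libraries (log2 fold change -0.72 ± 0.15, SE, edgeR adjusted p = 0.0163), and 0 passed in the other direction (2 at an unadjusted p under 0.05, and 1 in DESeq2). A count of 1 in 10 is near the 11.8% of all genes that passed in that direction. Akt2, Insr and Akt1 were among those that did not pass, at log2 fold changes of 0.10, 0.03 and -0.20, while the median of the list was -0.14.

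The cell cycle list, which holds inhibitors of the p21 family, to which Cdkn1c belongs, and of the INK4 family with D cyclins and their kinases, had 9 genes, all tested. Cdkn1a, which encodes p21, fell from 4805, 2776 and 3110 counts in Ctrl-labelled libraries to 1747, 1392 and 871 in cKO-labelled libraries (log2 fold change -1.39 ± 0.35, SE, edgeR adjusted p = 0.0282). Ccnd3 and Cdk4 also passed in that direction, and Cdkn2c, which encodes p18 of the INK4 family, rose by 0.85 ± 0.11 on the log2 scale (SE, edgeR adjusted p = 0.00365). In all, 3 of 9 passed higher in Ctrl-labelled libraries and 1 of 9 in cKO-labelled libraries, against 11.8% and 12.6% of all genes tested, and the median of the 9 was -0.36.

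Notch genes, listed because Dlk1 is related to the Notch ligands, were all tested, 12 of 12. Notch1 passed higher in Ctrl-labelled libraries (log2 fold change -0.36 ± 0.09, SE, edgeR adjusted p = 0.0308), the ligand Dll1 passed higher in cKO-labelled libraries (0.53 ± 0.15, edgeR adjusted p = 0.0465), and the list's median was -0.21. Among 12 genes that set or keep imprints, 11 were tested, and Dnmt3a, Tet3, Zfp445 and Ctcf passed higher in cKO-labelled libraries against 0 in the other direction (0 at an unadjusted p under 0.05, and 0 in DESeq2). Dnmt3a, a methyltransferase that sets new DNA methylation, had 2087, 2592 and 2280 counts in Ctrl-labelled libraries and 3606, 3760 and 4337 in cKO-labelled libraries (log2 fold change 0.74 ± 0.085, SE, edgeR adjusted p = 0.00307). The median of this list was 0.03. Among all genes tested 11.8% passed higher in Ctrl-labelled libraries and 12.6% in cKO-labelled libraries, beside 1 and 1 of the 12 Notch genes and 0 and 4 of the 11 imprint genes. DNA methylation itself was not measured.

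The cells that make these RNAs are mixed in a muscle lysate, and markers of several cell types moved with the labels. The counts of markers that passed stand beside 11.8% of all genes higher in Ctrl-labelled libraries and 12.6% higher in cKO-labelled libraries. Of 10 markers of fibro-adipogenic progenitors 7 passed higher in Ctrl-labelled libraries, with summed levels of 2192 to 2237 CPM against 1394 to 1800. With a fold change over 2 these were Postn, Mfap5, Ly6a and Col3a1, at log2 fold changes of -2.39, -1.49, -1.13 and -1.06. Of 7 immune markers tested 5 passed in that direction (90.2 to 105 against 46 to 62.9 CPM), of which Cd68, a macrophage marker, had a fold change over 2 (-1.12 on the log2 scale). Of 7 markers of slow fibres Atp2a2, Tnnt1 and Myl2 passed in that direction, at log2 fold changes of -2.75, -2.698 and -2.54, and the summed level of the 7 was 8168 to 13643 CPM against 344 to 3300. None of these lists had a marker at 0 in every library.

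H19 and the slow-fibre myosin Myh7 were both highest in Ctrl replicate 1 within their group and in cKO replicate 2 within the other. Myh7 had 143960, 71418 and 81139 counts in Ctrl-labelled libraries and 17515, 37493 and 3314 in cKO-labelled libraries (log2 fold change -2.30 ± 0.79, SE, edgeR adjusted p = 0.0742). Embryonic myosin Myh3, a marker of regenerating fibres, had 6215, 8350 and 6246 counts in Ctrl-labelled libraries and 220, 827 and 426 in cKO-labelled libraries (log2 fold change -3.83 ± 0.44, SE, edgeR adjusted p = 0.00302). Of the 4 markers of regenerating fibres tested, Myh3, Myog and Ncam1 passed higher in Ctrl-labelled libraries and Myh8, the perinatal myosin, in cKO-labelled libraries, with summed levels of 235 to 307 against 102 to 152 CPM.

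The satellite cell marker Pax7 had 77, 89 and 88 counts in Ctrl-labelled libraries and 75, 80 and 84 in cKO-labelled libraries (log2 fold change -0.10 ± 0.17, SE, edgeR adjusted p = 0.707). Of 9 satellite cell markers, Itga7 passed higher in Ctrl-labelled libraries and Cdh15 in cKO-labelled libraries, with summed levels of 332 to 379 against 291 to 319 CPM. Of 8 endothelial markers 0 passed in either direction (1 and 0 at an unadjusted p under 0.05, and 0 in DESeq2), as of 5 adipocyte markers (0 and 0 unadjusted, and 0 in DESeq2). Of 6 Schwann cell markers Pmp22 passed higher in Ctrl-labelled libraries, of 6 tendon markers Kera passed higher in cKO-labelled libraries, and of 8 skeletal muscle markers 4 did, among them the fast myosin Myh4 (log2 fold change 1.46). The part of fibre type, regeneration, progenitor or immune cells in the differences of H19, Mirg, Igf2, Igf2r and Cdkn1c was not tested.

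**Figure D5:**
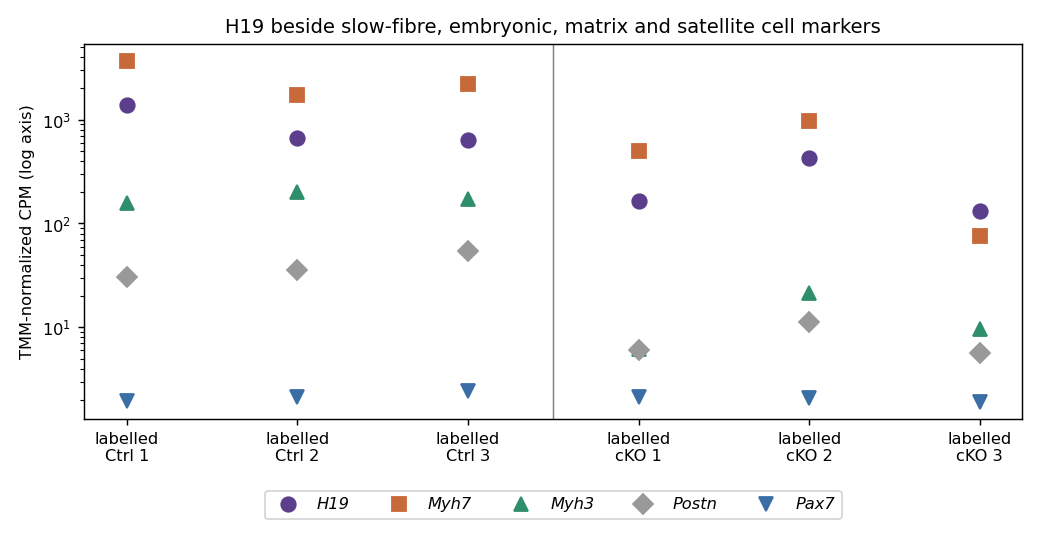
TMM-normalized CPM (log axis) of H19 and of a marker each of slow fibres (Myh7), embryonic myosin (Myh3), matrix-forming cells (Postn) and satellite cells (Pax7) in the 6 libraries. H19, Myh7, Myh3 and Postn are lower in every library labelled cKO, while Pax7 stays at a similar height across all 6; in cKO replicate 1 the symbols of Myh3 and Postn coincide.

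Across the 6 libraries, the genes most like Meg3 in the shape of their levels (smallest Euclidean distance between centred log2 CPM, with 0.5 CPM added, among 12352 genes of mean CPM of at least 1) were C3, Csad, Gcdh, Atg10 and Rnf217, at distances of 0.151 to 0.212. Those most like H19 were Myoz2, Dok5, Egln3, D630024D03Rik and Mfap4, at larger distances of 0.706 to 0.745. Myoz2, a sarcomeric protein of slow fibres, was at 617 ± 159 CPM in Ctrl-labelled libraries and 138 ± 62.4 CPM in cKO-labelled libraries (SD, n = 3 each). The points of each such comparison share the 6 libraries, and the lists are descriptions.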

How the data were processed

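RNA of GP muscle from 6 mice was made into mRNA libraries (KAPA mRNA HyperPrep) and sequenced paired-end. Per the submitters' processing notes and the study's methods, the authors used FastQC 0.11.8, Trimmomatic 0.39, HISAT2 2.1.0 with mm10 and featureCounts 1.6.2, and they deposited 1 table of whole-number counts per library, without normalization, over 24421 genes. The gene annotation and strand setting are not given in the sources used here. Multigene copies and overlapping genes may share reads.

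Tests between the labelled groups were run with edgeR 4.0.16 under R 4.3.3 (TMM factors, filterByExpr, glmQLFit and glmQLFTest, Benjamini-Hochberg adjustment over all 14180 genes tested). Passing means an adjusted p below 0.05, and some counts also require a fold change over 2. CPM is a count divided by the TMM-scaled library size. Standard errors and 95% intervals come from the F statistic. Ratios of counts were compared by an exact two-sided permutation test. The steps were also run on simulated data in which 200 genes differed by 1 on the log2 scale. Of these 200, edgeR recovered 123 and DESeq2 143. Beside them, edgeR called 11 other genes and DESeq2 called 52. Replicates are separate mice, and a chi-square test of their counts gave 29.5 to 101 per degree of freedom, so none repeats another. Counts as low as those of Mirg and Dlk1 carry wide errors.

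The 10 genes and all lists were chosen with earlier results of these data known. Named are the 10 genes; from each list those that passed with a fold change over 2, up to 6 by smallest p, and up to 3 of the most abundant others; and the 5 genes nearest in profile to Meg3 and to H19. Genes named outside this rule, the ratios other than Rian and Mirg to Meg3 among them, were chosen after their values were seen. Alternatives were size factors of DESeq2 1.42.0 or total counts in place of TMM, the filter dropped or set to 10 counts in each library, the Wald test of DESeq2, a robust fit, the mouse number as a block and leaving out each library. Positions come from GENCODE M21 (GRCm38, also called mm10), and microRNA sequences from RefSeq (GRCm38.p6).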

Additional observations from a re-analysis of the deposited data

How the results depend on the processing

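With 3 libraries a group, calls near the threshold rest on single libraries, and genes with few counts, such as Mirg and Dlk1, can show only large differences. The number of the 10 genes passing higher in Ctrl-labelled libraries, 5, ranged from 0 to 6 with 1 library left out, and with a fold change over 2 it was 2, with a range of 0 to 2, and 1 in the robust fit. In the other direction both counts, 0 as reported, were 1 in DESeq2 and ranged from 0 to 1 with 1 library left out. Neighbours and other imprinted genes passing higher in Ctrl-labelled libraries, 2, numbered 11 with total counts as library sizes and 1 with no filter, and ranged from 1 to 2 with 1 library left out. Those higher in cKO-labelled libraries, 6, ranged from 3 to 6, with 3 without Ctrl replicate 2. Over all genes, 1668 passed higher in Ctrl-labelled libraries and 1786 in cKO-labelled libraries, against 4074 and 673 with total counts. With 1 library left out, 788 to 1808 and 766 to 1777 genes passed in these 2 directions. The cause of these changes was not tested.

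The log2 fold change of Peg3 turned to 0.0076, 0.20 and 0.11 without Ctrl replicate 1, Ctrl replicate 3 and cKO replicate 3, in a range of -0.24 to 0.20 with 1 library left out. That of Plagl1 turned to -0.045 with total counts and to -0.12 without cKO replicate 2, in a range of -0.12 to 0.43 with 1 library left out. The other 8 genes, and Net39 (3.95 to 4.31), kept their direction in every alternative run in which they were tested. Dlk1 was not tested under the filter of 10 counts in each library. The log2 ratios of Rian and Mirg to Meg3 lay between -0.49 and -0.25 and between -1.45 and -0.94 with 1 library left out.

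Mice of the 2 groups share numbers in the labels but nothing says that these pair them, and same-numbered libraries deviated together with correlations of 0.084, -0.215 and -0.002. With the mouse number as a replicate block, 2 of the 10 genes, Igf2 and Cdkn1c, passed higher in Ctrl-labelled libraries, 0 of them with a fold change over 2, and H19, Mirg and Igf2r had adjusted p of 0.0571, 0.0953 and 0.0694 (edgeR). Of the neighbours and other imprinted genes 1 passed in that direction and 4 in the other. Begain, Zim1 and Mcts2 lost their calls (adjusted p = 0.0963, 0.0501 and 0.0892 in edgeR). Over all genes 972 and 927 passed in the 2 directions. The libraries do not all correlate best with their own number.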
